A study of Mus musculus with 12 samples.

Results

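Gene expression on day 8 was compared with day 4 in a line of mouse embryonic stem cells, W9.5, that was taken along a protocol toward pancreatic progenitor cells. The genes described are those whose probe was detected on all 3 arrays of day 8 or on all 3 arrays of day 4, where detection means a p-value under 0.05 against the negative controls of the same array. By this rule 8703 of the 9657 genes tested were included. The 2 groups were W9.5 cells on day 8 (3 Illumina BeadChip arrays) and W9.5 cells on day 4 (3 arrays), out of 12 arrays over days 0, 4, 8 and 15. The labels give every array, day 0 included, the same treatment, which is activin A, then retinoic acid (written as retinoid acid in the labels), then retinoic acid with fibroblast growth factor. They do not tie any of these agents to a day, and they call the cells ESC cells on every day. Nothing in them says that the 3 arrays of a day came from separate cultures, so p-values measure only the spread between these arrays.

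Activin A activates the same receptors as Nodal, the signal that sets up mesoderm and endoderm in the embryo. Retinoic acid binds nuclear receptors (RARs) that sit on DNA and switch on target genes, and it patterns the gut tube at the level where the pancreas forms. The early embryo also has extraembryonic endoderm, which shares many transcription factors with the endoderm of the embryo proper: its parietal layer secretes a thick basement membrane, and its visceral layer makes plasma proteins and lipoproteins as the liver does later.

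More genes differed between the days than not. At a Benjamini-Hochberg adjusted p under 0.05 in a limma fit to all 12 arrays, 5323 of 9657 tested genes were called (55.1%), of which 2715 rose (28.1%) and 2608 fell (27.0%) on day 8. Changes of at least 2-fold were found in 1105 rising genes (11.4%) and 911 falling genes (9.43%), at least 4-fold changes in 281 and 226, and at least 16-fold changes in 20 and 19. Among the 8703 genes included, 59.4% were called, 30.3% as rises and 29.1% as falls. Single arrays of the days did not overlap for 31.2% of tested genes with day 8 above and for 30.3% with day 8 below. The median change over all tested genes was -0.01 on the log2 scale. Scaling each array to its median without background correction gave 3055 rises and 1931 falls, so 61.3% of the calls were rises there, against 51.0% in the fit used here.

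The 3 arrays of a day lay close together. Correlations of log2 levels across genes were 0.991 to 0.993 among the day 8 arrays, 0.990 to 0.992 among the day 4 arrays and 0.899 to 0.912 between the days. The number of detected probes was 11950 ± 159 on day 8 and 11797 ± 512 on day 4 (SD, n = 3 arrays each), a difference of 153 (exact permutation test, two-sided, p = 0.8, where 3 arrays against 3 cannot go below 0.1). Of the genes included, 7484 were detected on all 6 arrays, and 57.4% of these were called: 2137 rose (28.6%) and 2157 fell (28.8%). Another 719 were detected on all 3 arrays of day 8 but not on all 3 of day 4, and 500 the other way round. These last 2 groups passed the filter through the day on which they were brighter, so their direction is a description only. The list counts below include such genes, and for some lists the counts over genes detected on all 6 arrays are added. The 954 tested genes just outside the rule, detected on all 3 arrays of neither day, had a median change of -0.01, as the genes inside it had. With RNA pooled from a whole culture, fewer cells of a type and less RNA per cell cannot be told apart.

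**Figure D1:**
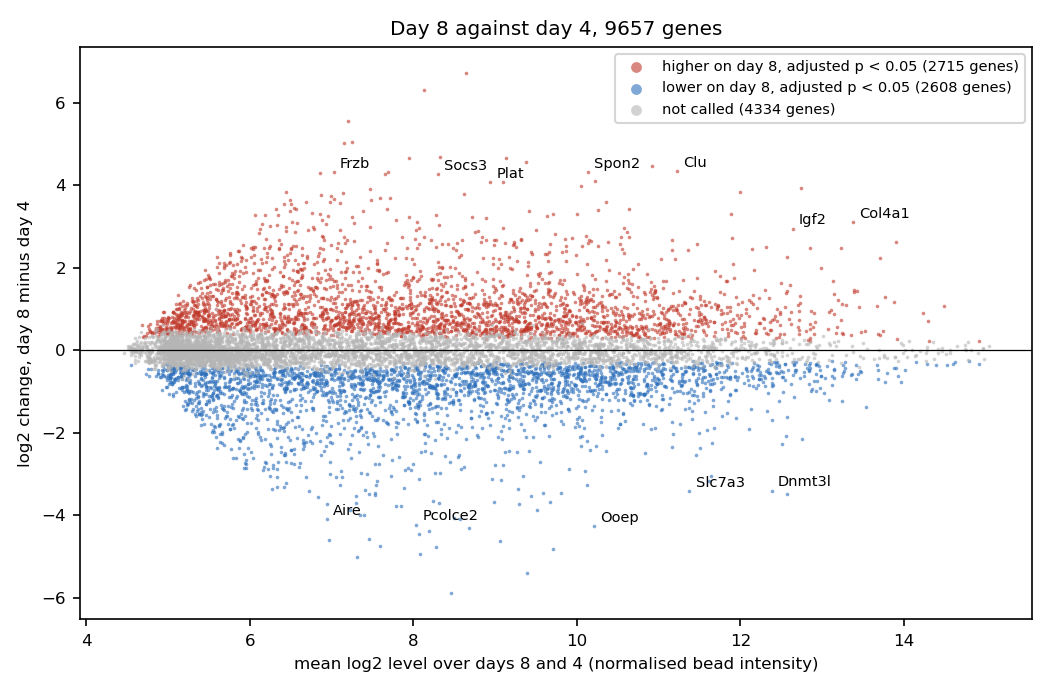
Change on day 8 relative to day 4 (vertical axis, log2) against the mean log2 level over both days (horizontal axis) for the 9657 tested genes, 1 point per gene, with 2715 rising genes in red, 2608 falling genes in blue and uncalled genes in grey. Rises and falls lie on both sides of 0 at all but the highest levels, and Col4a1 and Igf2 are among the brightest genes with a large rise.

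The label of the cells was checked against marker genes. All 9 tested markers of embryonic stem cells fell on day 8, against 27.0% of all genes. Among them were Utf1, a chromatin-associated factor of undifferentiated cells, and Dppa4. Log2 levels of Dppa4 were 10.11, 9.84 and 10.15 on day 8, against 13.20, 13.31 and 13.10 on day 4. Fgf4 was detected on none of the day 8 arrays, while the other 8 stayed detected on all 3. The log2 of the summed level of the 9 markers was 11.50 to 11.85 on the day 8 arrays and 14.86 to 14.95 on the day 4 arrays. ESC cells, as the label has it, therefore goes against these markers more on day 8 than on day 4.

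Endoderm markers moved unevenly. Several also belong to gene lists described below, among them Apob, Ttr, Ihh, Hnf4a, Rhox5, Thbd and Plat. The counts of those lists are therefore not independent of the marker counts. Of 12 parietal endoderm markers 11 rose (91.7%, against 28.1% of all genes). The other, Vim, which encodes an intermediate filament, was not called (-0.33 ± 0.15 SE, adjusted p = 0.0676). It was called lower without day 4 replicate 1 (-0.47) and in the fit to the 6 arrays of both days (adjusted p = 0.0326). It was also called lower in a fit that takes replicate number as a block (adjusted p = 0.00930). The log2 summed level of the 12 markers was 16.75 to 16.86 on day 8 and 14.61 to 14.80 on day 4. Of 12 visceral endoderm markers 11 rose as well (91.7%), with a summed level of 15.98 to 16.11 on day 8 and 13.94 to 14.10 on day 4. The uncalled one was Amn, a subunit of the receptor that takes up vitamin B12 with intrinsic factor, at 11.60, 11.29 and 11.51 on day 8, against 11.32, 11.50 and 11.18 on day 4. Of 10 definitive endoderm markers 5 rose (50%, against 28.1% of all genes), each by at least 2-fold, and 2 fell. Their median change was 1.30, and their log2 summed level was 13.80 to 13.92 on day 8 and 13.22 to 13.35 on day 4. Hhex changed by 0.25 ± 0.16, Cxcr4 by 0.38 ± 0.20 and Gsc by -0.14 ± 0.24, and none of these 3 was called. Eomes, a T-box factor of early mesendoderm, fell to 7.87, 7.89 and 8.50 on day 8, against 9.50, 9.80 and 9.87 on day 4 (-1.63 ± 0.21, adjusted p = 3.00e-06).

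Markers of other cell types were mixed. Over all tested genes 28.1% rose and 27.0% fell. The shares of rises were 83.3% for trophoblast, 28.6% for cardiac, 20% for fibroblast and 33.3% each for endothelial, neural and blood markers. Apart from trophoblast these lay near the share of all genes. Falls came to 16.7% for trophoblast, 14.3% for cardiac, 30% for fibroblast, 55.6% for endothelial and 33.3% each for neural and blood markers. Trophoblast markers rose in 5 of 6 cases and fell in 1, and their log2 summed level was 10.26 to 10.50 on day 8 and 9.50 to 9.72 on day 4. Of 7 cardiac muscle markers 2 rose and 1 fell, with summed levels of 10.88 to 11.06 on day 8 and 8.43 to 8.73 on day 4. The day 8 sum rests largely on the 2 that rose, Myl3 (mean 9.67 on day 8) and Tnnc1 (9.79 on day 8 and 5.53 on day 4). The sum without these 2 was not computed. Myl3, a myosin light chain, was detected on no array of day 4, while Tnnt2, which encodes cardiac troponin T, was detected on no array of either day, and Tnni3 and Actc1 were not called. Endothelial markers rose in 3 of 9 cases and fell in 5, with Pecam1 and Robo4 detected on no array of day 8. Their summed level was 12.48 to 12.62 on day 8 and 11.68 to 11.92 on day 4. Flt1, which averaged 11.66 on day 8 and 7.09 on day 4, made up much of the day 8 sum. The sum without Flt1 was not computed. Fibroblast markers rose in 2 of 10 cases and fell in 3, and Lum was detected on no array of day 8. Their summed levels were 13.14 to 13.32 on day 8 and 12.69 to 12.84 on day 4. Only 1 fibroblast marker, Pdgfra, rose by at least 2-fold (3.60 on the log2 scale). The higher sum rests largely on this bright gene, and the sum without it was not computed. Among 6 neural markers 2 rose and 2 fell, with a summed level of 8.44 to 8.68 on day 8 and 9.07 to 9.09 on day 4, and Dcx was detected on no array of either day. Of 3 blood markers 1 rose and 1 fell, with summed levels of 7.54 to 7.71 on day 8 and 7.57 to 7.73 on day 4. What part cells of these types had in the results that follow was not tested.

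Sequences upstream of 6 genes that the results return to are shown here, because each holds the letters of a known binding element. The promoters are those of RefSeq (build GRCm38.p6, 250 bases before to 50 after the start of each gene), and only bases before the start are printed, 5′ to 3′ on the strand of the gene. Capitals mark the matched letters: a retinoic acid response element (GTTCA, any 5 bases, AGTTCA) in Rarb and Cyp26a1 (reverse strand in Cyp26a1), an endoplasmic reticulum stress element (CCAAT, any 9 bases, CCACG) in Hspa5, Hsp90b1 and Pdia6, and the longer arm of an HNF1 site (GTTAAT, any base, ATT) in Afp.
Rarb: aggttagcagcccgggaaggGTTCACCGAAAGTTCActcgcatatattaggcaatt
Cyp26a1: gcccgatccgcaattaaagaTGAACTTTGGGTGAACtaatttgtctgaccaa
Hspa5: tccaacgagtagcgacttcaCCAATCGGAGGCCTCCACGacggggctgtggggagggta
Hsp90b1: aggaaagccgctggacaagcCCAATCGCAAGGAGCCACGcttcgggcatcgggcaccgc
Pdia6: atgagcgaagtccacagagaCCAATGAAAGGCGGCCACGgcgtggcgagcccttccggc
Afp: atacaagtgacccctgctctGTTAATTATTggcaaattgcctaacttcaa
The stretches lie at chr14:16575493-16575548 (minus strand, Rarb), chr19:37697756-37697807 (plus strand, Cyp26a1), chr2:34772005-34772063 (plus strand, Hspa5), chr10:86705618-86705676 (minus strand, Hsp90b1), chr12:17266471-17266529 (plus strand, Pdia6) and chr5:90490589-90490638 (plus strand, Afp). Measured from the start of the gene, the matched letters begin at base -52 in Rarb, -32 in Cyp26a1, -65 in Hspa5, -212 in Hsp90b1, -98 in Pdia6 and -105 in Afp. The Hsp90b1 window holds a second match, on the reverse strand from base -107, which is not printed.

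Both strands of all windows were searched for 13 such spellings, which were chosen with the expression values known, and a match is only a run of letters. Of 32851 windows, 11 held the retinoic acid spelling (0.0335%). Among the 7829 tested genes with a window, 4 did, and 3 of these were among the 885 that rose at least 2-fold and 0 among the 727 that fell at least 2-fold. The HNF1 arm was held by 0.399% of windows, by 26 of the 7829 tested genes, by 11 of the 885 with a 2-fold rise and by 1 of the 727 with a 2-fold fall. In the lists it was searched for, 0 of 16 lipoprotein, 0 of 16 coagulation and complement and 1 of 19 plasma carrier and uptake genes held it. The arm overlaps with the full HNF1 site, which adds AAC at the end and was held by 0 of the 7829 tested genes. The GATA spelling AGATAAG was held by 2.38% of tested genes, 3.16% of those with a 2-fold rise and 2.61% of those with a 2-fold fall. For the octamer ATGCAAAT these shares were 1.7%, 2.49% and 1.65%. Among 15 germline genes with a window, 0 held the octamer and 6 the E-box CACGTG, against 11.6% of tested genes for the latter.

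Most retinoid genes rose. Of 33 genes on the array that carry, make, break down or bind retinoids, 20 were tested. Of these 14 rose (70%, against 28.1% of all genes), 2 fell and 4 were not called. Detection on all 6 arrays left 11 genes, of which 7 rose and 0 fell, where 28.6% of all genes so detected rose. The median change was 0.83 against -0.01 over all tested genes. Rarb, a retinoic acid receptor, had log2 levels of 7.95, 8.00 and 7.83 on day 8, against 4.82, 5.23 and 4.78 on day 4, when it was detected on 1 of 3 arrays. Cyp26a1, the enzyme that oxidises retinoic acid, reached 9.58, 9.83 and 9.51 on day 8, against 6.91, 7.08 and 7.18 on day 4. The days did not overlap for either gene (adjusted p = 2.86e-10 and 8.80e-10), as for 31.2% of tested genes with day 8 above.

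Genes of each step of the pathway were among the rises. Stra6, the cell surface receptor that takes up retinol, was detected on no day 4 array and had levels of 6.74, 7.21 and 6.94 on day 8, at least 3.40-fold higher. Rdh10, which makes retinaldehyde from retinol, rose by 2.42 ± 0.13, with 11.05, 11.25 and 10.92 on day 8 and 8.76, 8.54 and 8.66 on day 4. Aldh1a1, which makes retinoic acid from retinaldehyde, was not detected on day 4 either, and its day 8 level was at least 5.09-fold higher. Crabp2, which carries retinoic acid to its receptors, was at least 2.02-fold higher. The receptor Rarg went the other way: it had 4.61, 4.75 and 4.61 on day 8, when it was detected on no array, against 6.05, 6.01 and 6.19 on day 4, at least 1.90-fold lower.

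HOX genes, many of which respond to retinoic acid in embryos, gave few calls. Of 17 tested, 6 rose and 0 fell (35.3% rose, against 28.1% of all genes). Hoxc9 had log2 levels of 7.55, 7.82 and 7.77 on day 8 and 5.57, 5.44 and 5.75 on day 4 (2.13 ± 0.15, adjusted p = 2.18e-09). Hoxb2 rose by 1.68 ± 0.20, and Hoxb4 by 1.30 ± 0.16. Hoxa5, undetected on day 4, was higher by at least 2.46-fold.

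Basement membrane genes had the largest median rise of the matrix lists. Of 28 on the array 22 were tested, 15 rose (68.2%, against 28.1% of all genes) and 2 fell, with a median change of 1.16. Many of them are also parietal endoderm markers, so the 2 counts are not independent. Col4a1, which encodes a chain of collagen IV, the network collagen of basement membranes, had log2 levels of 14.82, 14.96 and 15.03 on day 8, against 11.71, 11.71 and 12.04 on day 4. Its partner chain Col4a2 had 15.25, 15.25 and 15.16 on day 8, against 12.70, 12.61 and 12.47 on day 4. The days were far apart for both, at 3.12 ± 0.12 (8.68-fold, adjusted p = 1.15e-12) and 2.62 ± 0.09 (6.17-fold, adjusted p = 3.15e-13).

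All 3 chains of laminin-111, the first laminin of the embryo, rose. Lama1 had 10.13, 10.46 and 10.38 on day 8 and 6.99, 7.39 and 6.92 on day 4. Lamb1 averaged 11.70 ± 0.16 on day 8 and 9.07 ± 0.08 on day 4 (SD, n = 3 arrays each). Lamc1 had 13.96, 14.11 and 14.19 on day 8 and 11.55, 11.62 and 11.66 on day 4. Their changes lay between 2.48 and 3.22. In each the lowest day 8 array was above the highest day 4 array, as in 31.2% of tested genes. Nid1, the linker between laminin and collagen IV, rose by 2.61 ± 0.17, the calcium-binding matrix protein gene Sparc by 2.58 ± 0.15, and Smoc1 by 2.88 ± 0.13. Col18a1, a collagen of the same zone, fell to 11.36, 11.47 and 11.72 on day 8, against 13.56, 13.66 and 13.57 on day 4 (-2.09 ± 0.15, adjusted p = 2.73e-09).

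Of the fibrillar collagen genes Col1a1, Col1a2 and Col3a1 only Col1a2 was called, while genes of several collagen-modifying enzymes rose. Col3a1 had 8.17, 8.32 and 8.03 on day 8, against 8.26, 8.20 and 8.09 on day 4, and its change of -0.01 had a 95% interval of -0.45 to 0.43. Col1a1 was not called either (0.41 ± 0.30, adjusted p = 0.26), while Col1a2 rose by 0.76 ± 0.25 but was not called without day 8 replicate 1 (0.69) or day 4 replicate 2 (0.64). The collagen prolyl hydroxylase gene P4ha2, in contrast, had 12.05, 12.11 and 12.02 on day 8 and 9.19, 9.16 and 8.94 on day 4 (7.81-fold, adjusted p = 1.15e-12). P4ha1 rose by 2.67 ± 0.16, the lysyl hydroxylase genes Plod2 by 2.66 ± 0.23 and Plod3 by 1.44 ± 0.12, and the crosslinking enzyme gene Loxl2 by 2.20 ± 0.17. Serpinh1, which encodes the collagen chaperone HSP47, had 14.75, 14.85 and 14.87 on day 8, against 12.70, 12.55 and 12.53 on day 4. Pcolce2, an enhancer of procollagen trimming, showed the reverse with 5.86, 5.50 and 6.40 on day 8 and 9.97, 10.11 and 10.36 on day 4 (18.7-fold lower). Over all 24 tested genes for fibrillar collagens and their processing, 11 rose and 5 fell (45.8% and 20.8%, against 28.1% and 27.0% of all genes).

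Genes of the secretory pathway rose broadly. Of 54 tested genes for folding and transport in the endoplasmic reticulum (ER), 34 rose (63.0%, against 28.1% of all genes) and 1 fell, with a median change of 0.57. Kdelr3, a receptor that returns escaped ER proteins, had 13.08, 13.32 and 13.35 on day 8, against 10.54, 10.51 and 10.56 on day 4, a change of 2.72 ± 0.10. The protein disulfide isomerase genes Pdia5 and P4hb rose by 2.10 ± 0.13 and 1.45 ± 0.12, the cargo receptor gene Surf4 by 1.41 ± 0.13 and the vesicle coat gene Sec24d by 1.32 ± 0.12. Xbp1, a transcription factor of secretory cells, had 13.23, 13.25 and 13.43 on day 8 and 12.19, 12.30 and 12.02 on day 4. The single fall was Atf4, a transcription factor of the integrated stress response, at -0.31 ± 0.11 (adjusted p = 0.0254), and it was not called after median scaling (-0.20) or without day 8 replicate 1 (-0.24), day 8 replicate 2 (-0.32) or day 4 replicate 3 (-0.29).

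Not all genes with the ER stress element were called. The element was found in 0.119% of all windows, in 12 of the 7829 tested genes and in 5 of the 46 ER genes with a window. Of these 5, the chaperone gene Hspa5 rose by 0.70 ± 0.15, Pdia6 by 0.56 ± 0.15 and Hsp90b1 by 0.47 ± 0.15, whereas Creld2 (-0.07 ± 0.12) and Canx (-0.02 ± 0.16) were not called. Hspa5 had 11.88, 11.92 and 11.81 on day 8, against 11.29, 10.94 and 11.31 on day 4, so its days did not overlap. Hsp90b1 was not called without day 8 replicate 2 (0.38), day 8 replicate 3 (0.43) or day 4 replicate 1 (0.37). Some other genes that ER stress induces, chosen after their values were seen, were not called. Sdf2l1 changed by -0.08 ± 0.20, Herpud1 by -0.20 ± 0.21, Manf by 0.17 ± 0.20 and Pdia4 by 0.05 ± 0.21. Without day 8 replicate 3, Herpud1 was called lower (-0.49). Genes picked in this way do not stand for the rest, and whether ER stress had a part in these changes was not tested.

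**Figure D2:**
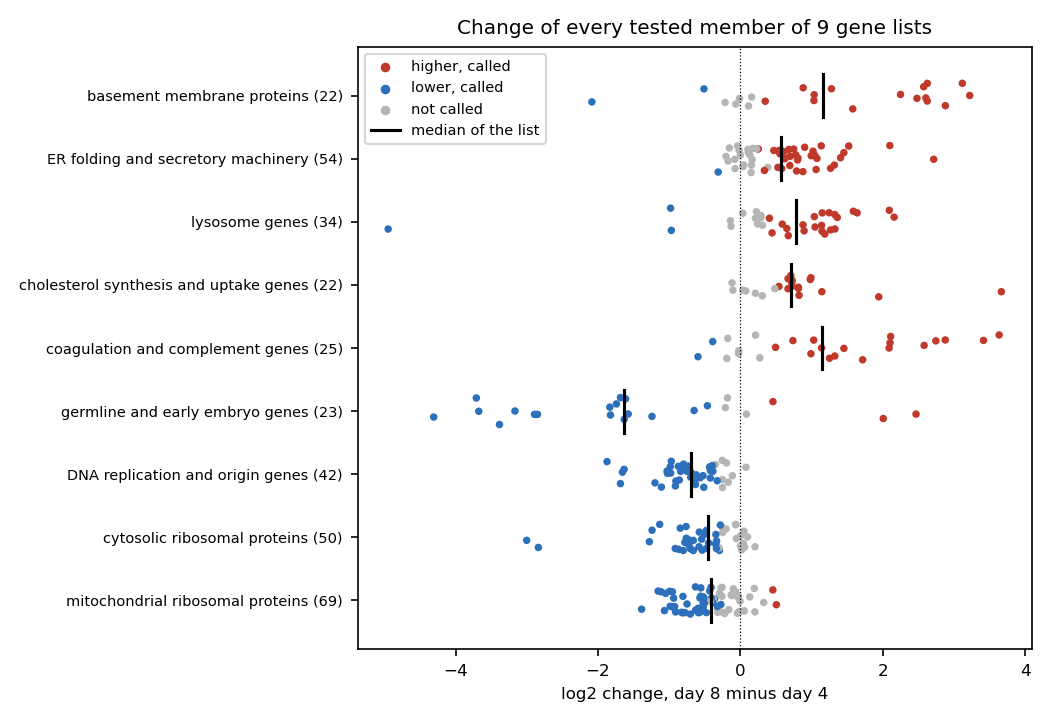
Log2 change on day 8 relative to day 4 (horizontal axis) of every tested member of 9 gene lists (rows, number tested in brackets), with 1 point per gene, red for called rises, blue for called falls, grey for uncalled genes and a black bar for the list's median. The medians run from 1.16 for basement membrane proteins to -1.63 for germline and early embryo genes.

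Genes of blood clotting and complement, a set that liver and visceral endoderm express, mostly rose. Of 25 tested, 17 rose (68%, against 28.1% of all genes) and 2 fell, with a median of 1.14. F2, the gene for prothrombin, had 9.37, 9.16 and 9.35 on day 8 and 5.39, 6.10 and 5.49 on day 4 (12.4-fold, adjusted p = 1.18e-10). Both initiators and brakes of clotting were among the rises. F3, the gene for tissue factor, had 11.92, 11.98 and 12.12 on day 8 and 9.21, 9.35 and 9.23 on day 4. Its inhibitor gene Tfpi rose by 2.09 ± 0.14, the anticoagulant protease gene Proc by 2.11 ± 0.17, and Thbd, the gene for thrombomodulin, by 2.58 ± 0.17. Serpinf2, the gene for the plasmin inhibitor antiplasmin, was detected on no day 4 array and was at least 7.08-fold higher, and Plat, the gene for tissue plasminogen activator, had 10.68, 11.15 and 11.09 on day 8, against 6.64, 6.99 and 7.07 on day 4. F2r, a thrombin receptor gene, fell by 0.60 on the log2 scale.

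Of 23 tested lipoprotein genes 12 rose and 5 fell (52.2% and 21.7%, against 28.1% and 27.0% of all genes). Without day 8 replicate 2, day 8 replicate 3 or day 4 replicate 3, the falls came to 3. Apob, the core protein of the larger lipoproteins, had 8.47, 8.49 and 8.42 on day 8, against 5.52, 5.27 and 5.11 on day 4 (3.16 ± 0.20, adjusted p = 5.75e-10). Mttp, which loads lipid onto it, rose by 1.93 ± 0.16, Apom by 2.82 ± 0.22 and Apoa1 by 2.27 ± 0.16. The falls were Angptl4, an inhibitor of lipoprotein lipase, the lipase gene Lpl itself (-1.31 ± 0.17), the sterol exporter gene Abcg1 (-1.04 ± 0.14) and 2 others. Angptl4 had 5.34, 5.34 and 5.49 on day 8 and 9.40, 9.25 and 9.54 on day 4, which is 16.1-fold lower.

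Plasma carriers and uptake receptors rose in 17 of 26 tested cases (65.4%, against 28.1% of all genes) and fell in 3. Ttr, the carrier of thyroid hormone and retinol-binding protein, had 14.06, 13.73 and 13.96 on day 8, against 10.22, 10.05 and 9.94 on day 4. The largest fall was the transferrin receptor gene Tfrc, through which cells take up iron, with 8.90 ± 0.09 on day 8 and 11.21 ± 0.16 on day 4 (SD; change -2.31 ± 0.14, adjusted p = 2.49e-10). The folate receptor gene Folr1 also fell (-0.87 ± 0.15).

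Of 34 tested lysosomal genes 22 rose (64.7%, against 28.1% of all genes) and 3 fell, with a median of 0.78. Naglu, an enzyme that degrades heparan sulfate, had 10.35, 10.37 and 10.32 on day 8, against 8.01, 8.42 and 8.14 on day 4. Ctns, which exports cystine from the lysosome, rose by 2.09 ± 0.13, the glycogen-degrading enzyme gene Gaa by 1.64 ± 0.14 and the membrane protein gene Lamp2 by 1.36 ± 0.11. The falls were Scarb2 and Laptm4b, genes of lysosomal membrane proteins (-0.98 ± 0.18 and -0.97 ± 0.18), and Laptm5, a related gene of blood cells, with 5.68, 5.52 and 5.63 on day 8, against 10.56, 10.56 and 10.55 on day 4. Among 11 tested cathepsin genes, the proteases of this compartment, 8 rose (72.7%) and 2 fell (18.2%). Ctsh had 12.87, 12.41 and 12.43 on day 8, against 10.24, 10.09 and 10.07 on day 4, while Ctsw was detected on no day 8 array and was at least 3.48-fold lower. The letters TCACGTGA, at the core of the element that binds the lysosomal regulator TFEB, were held by 3 of 30 lysosomal genes with a window and by 173 of the 7829 tested genes, and they overlap with the E-box CACGTG. Genes with a 2-fold rise held these letters in 13 of 885 cases (1.47%, against 2.21% of tested genes). Those with a 2-fold fall held them in 10 of 727 cases (1.38%).

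Of 22 tested genes for cholesterol synthesis and uptake 15 rose (68.2%, against 28.1% of all genes) and 0 fell, with a median of 0.71. Insig1, the ER protein that holds back the sterol-sensing transcription factors, had 8.59, 9.13 and 8.88 on day 8 and 5.04, 4.91 and 5.66 on day 4, when it was detected on 1 of 3 arrays. Stard4, which moves cholesterol between membranes, had 11.27, 11.44 and 11.39 on day 8 and 9.44, 9.62 and 9.21 on day 4. Hmgcs1, an early enzyme of the pathway, had 13.69, 13.60 and 13.51 on day 8 and 12.69, 12.56 and 12.61 on day 4. For all 3 the days did not overlap, as for 31.2% of tested genes with day 8 above. The late enzyme genes Hsd17b7 and Dhcr7 rose by 1.14 ± 0.12 and 0.82 ± 0.17. Srebf2, which encodes the transcription factor that switches these genes on, rose by 0.99 ± 0.23. The sterol regulatory element (ATCAC followed by CCCAC) was found in 0 of the 18 genes of the list with a window and in 0.0913% of all windows.

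**Figure D3:**
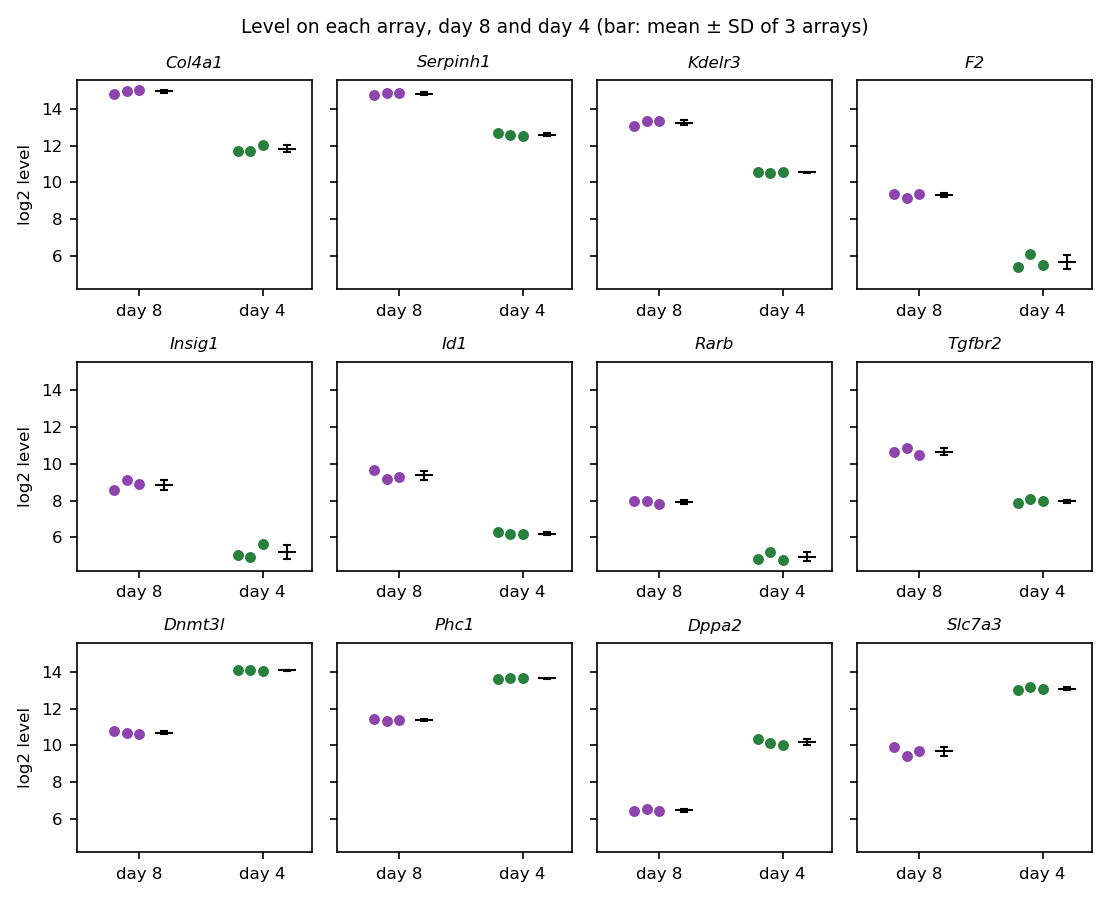
Log2 level on each of the 3 arrays (points) with the mean ± SD (bar) on day 8 (left) and day 4 (right) for 12 genes. In every panel the points of the days do not overlap. Over all tested genes that held for 31.2% with day 8 above and for 30.3% with day 8 below. The first 8 genes are higher on day 8, by 2.23 to 3.67, and Dnmt3l, Phc1, Dppa2 and Slc7a3 are lower.

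Transcription factor families moved in different ways. SOX factors rose in 6 of 11 tested cases and fell in 2 (54.5% and 18.2%, against 28.1% and 27.0% of all genes). Sox5 had 6.80, 7.04 and 6.74 on day 8, against 5.41, 5.15 and 5.22 on day 4, and Sox21 and Sox7 rose by 1.13 ± 0.15 and 1.08 ± 0.14. Sox15, a partner of Oct4 in stem cells, was detected on no day 8 array and was at least 2.26-fold lower. Forkhead factors rose in 9 of 21 cases (42.9%) and fell in 2 (9.52%). Among the 12 forkhead genes detected on all 6 arrays 4 rose and 0 fell. Foxa3, which opens chromatin at liver and gut genes, had 10.54, 10.75 and 10.58 on day 8, against 8.40, 8.40 and 8.04 on day 4 (5.07-fold, adjusted p = 8.20e-10), and Foxa1 was detected on day 8 arrays and on none of day 4, at least 3.54-fold higher. Foxp1 fell (-1.29 ± 0.21).

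The hepatocyte nuclear factor list gave 5 rises (71.4%, against 28.1% of all genes) and 1 fall among 7 tested genes. Only 4 of the 7 were detected on all 6 arrays, and among these 2 rose and 1 fell. Prox1, needed for liver and pancreas budding, rose by 1.28 ± 0.17, with 6.39, 6.77 and 6.76 on day 8 and 5.15, 5.70 and 5.22 on day 4. Onecut2 was undetected on day 4 and at least 1.53-fold higher, and Onecut1 (HNF6), a regulator of early pancreas genes, was detected on all 3 day 8 arrays at 5.23, 5.62 and 5.40 and on 1 of 3 day 4 arrays at 4.75, 4.87 and 5.12. Its rise was not called without day 8 replicate 2 (0.40) or day 4 replicate 1 (0.42). Hnf4a, a receptor of liver and visceral endoderm, had 9.96, 10.06 and 9.82 on day 8, against 8.65, 8.67 and 8.13 on day 4.

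Among 20 tested nuclear receptors 5 rose and 4 fell (25% and 20%, against 28.1% and 27.0% of all genes). Nr2f1 (COUP-TFI) had 8.46, 8.28 and 8.27 on day 8, against 6.29, 6.42 and 6.20 on day 4. Nr6a1, which silences Oct4 during differentiation, had 10.90, 10.82 and 10.90 on day 8 and 9.17, 9.40 and 9.27 on day 4 (1.60 ± 0.12, adjusted p = 3.72e-09). Nr0b1 (Dax1), a factor of undifferentiated stem cells, fell below detection on all 3 day 8 arrays, against 7.65, 7.92 and 8.39 on day 4, at least 7.10-fold lower.

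Of 55 homeobox genes outside the Hox clusters 22 rose and 12 fell (40.0% and 21.8%, against 28.1% and 27.0% of all genes). Detection on all 6 arrays left 26 of them, with 10 rises and 8 falls. Meis2, a cofactor of Hox and Pbx proteins, had 9.70, 9.25 and 9.72 on day 8, against 7.04, 6.78 and 6.83 on day 4, and Irx5 had 7.69, 8.04 and 7.81 on day 8, against 5.54, 5.59 and 5.53 on day 4. Gbx2, which keeps stem cells undifferentiated and later patterns the hindbrain, fell to 7.35, 7.36 and 7.48 on day 8, against 10.65, 10.54 and 10.39 on day 4 (-3.13 ± 0.13, adjusted p = 2.58e-12). Krüppel-like factors rose in 4 of 12 cases (33.3%) and fell in 5 (41.7%), with Klf8 up by 1.62 ± 0.17 and Klf9 down (-1.52 ± 0.10). ETS factors rose in 5 of 13 cases (38.5%) and fell in 6 (46.2%), with Ets2 at 1.71 ± 0.15 and Elf1 at 1.27 ± 0.16 among the rises.

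The numbered zinc finger genes are a large group of mostly uncharacterised DNA-binding proteins. Of 171, 35 rose and 51 fell (20.5% and 29.8%, against 28.1% and 27.0% of all genes). Median scaling turned that order round with 44 rises and 37 falls. Zfp459 had 5.76, 5.85 and 5.80 on day 8, against 8.95, 9.25 and 9.58 on day 4, and Zfp979 fell by 2.48 on the log2 scale. Zfp672 rose by 1.88 ± 0.17.

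**Figure D4:**
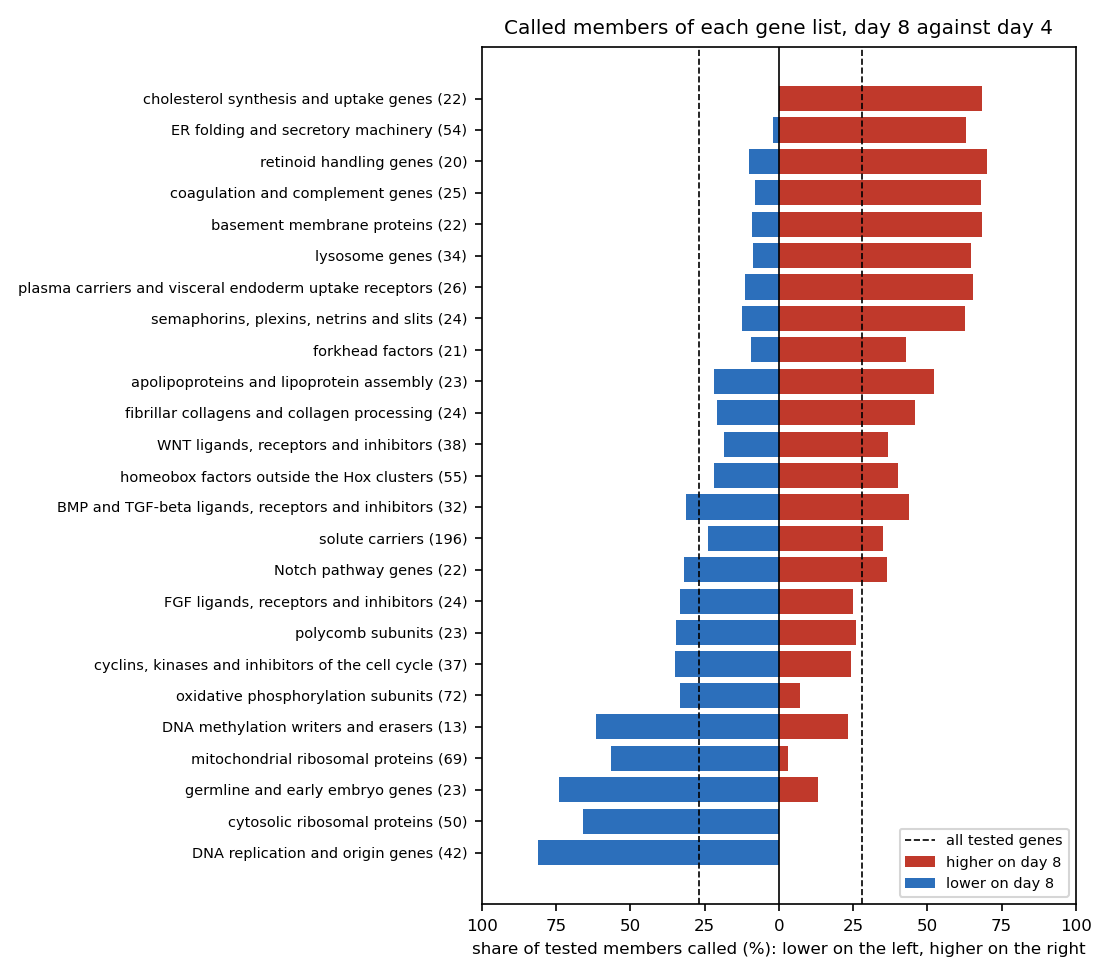
Share of the tested members of 25 gene lists (rows, number tested in brackets) called higher (red, to the right) or lower (blue, to the left) on day 8 than on day 4, in percent. Dashed lines mark the shares of all tested genes, 28.1% higher and 27.0% lower; cholesterol, ER, retinoid, coagulation, basement membrane and lysosome genes stand to the right of the line with few falls, and DNA replication, ribosomal and germline genes to the left with few rises.

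In the BMP and TGF-beta pathways 14 of 32 genes rose and 10 fell (43.8% and 31.2%, against 28.1% and 27.0% of all genes). The targets Id1, Id2 and Id3, inhibitors of helix-loop-helix factors that BMP signals induce, all rose. Id1 had 9.64, 9.19 and 9.29 on day 8 and 6.29, 6.18 and 6.16 on day 4, and Id2 had 10.39, 10.47 and 10.40 on day 8 and 7.61, 7.85 and 8.00 on day 4. Id3 rose by 1.33 ± 0.14. The ligand gene Bmp4 itself fell (-1.21 ± 0.14), with 6.59, 6.33 and 6.56 on day 8 and 7.53, 7.79 and 7.80 on day 4. Among the rises were 2 receptor genes: Tgfbr2, the type II receptor of TGF-beta, had 10.62, 10.86 and 10.49 on day 8, against 7.88, 8.06 and 7.95 on day 4, and Acvr1b, a type I receptor for activin and Nodal, rose by 2.20 ± 0.20.

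Ligand genes of the Nodal branch were lower. Nodal averaged 7.11 ± 0.10 on day 8, against 9.67 ± 0.18 on day 4 (SD; change -2.56 ± 0.14, adjusted p = 1.09e-10). Gdf3, a related ligand, had 8.01, 7.55 and 7.93 on day 8, against 11.46, 11.63 and 11.43 on day 4, which is 12.8-fold lower. Tgfb2 rose by 1.90 ± 0.20.

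In the FGF pathway 6 of 24 genes rose and 8 fell, shares close to those of all genes. The ligand genes Fgf15 and Fgf5 fell: Fgf15 had 8.49, 7.77 and 8.32 on day 8, against 10.91, 10.89 and 10.92 on day 4, and Fgf5, a ligand of the epiblast, had 7.99, 7.75 and 8.35 on day 8, against 10.47, 10.63 and 10.40 on day 4. The feedback inhibitor gene Spry4 fell as well (-2.41 ± 0.18). Fgf10, the mesenchymal ligand of the early pancreas, rose to 8.76, 8.92 and 8.90 on day 8, against 7.75, 7.76 and 7.67 on day 4 (1.13 ± 0.14). Klb, a coreceptor for endocrine FGFs, rose by 1.41 ± 0.13, and the transmembrane protein gene Flrt3 by 2.34 ± 0.19.

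In the WNT pathway 14 of 38 genes rose and 7 fell (36.8% and 18.4%, against 28.1% and 27.0% of all genes). The 2 nuclear partners of beta-catenin that passed the rule for naming moved in opposite directions: Tcf7l2 had 10.10, 10.73 and 10.68 on day 8, against 7.79, 8.03 and 7.99 on day 4, and Lef1 was detected on no day 8 array, against 6.10, 6.69 and 6.86 on day 4. Secreted inhibitors were split too. Frzb, which binds WNT ligands, was detected on no day 4 array and had 9.26, 9.17 and 9.12 on day 8, at least 15.8-fold higher, whereas Notum, which strips the lipid from WNT ligands, was detected on no day 8 array and was at least 4.59-fold lower. Sfrp1 fell (-1.31 ± 0.17), and the ligand Wnt5a and its receptor Ror2 rose by 1.70 ± 0.20 and 1.70 ± 0.16.

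Of 9 hedgehog genes 5 rose (55.6%, against 28.1% of all genes) and 0 fell, though median scaling gave 1 fall. Only 3 of the 9 were detected on all 6 arrays, and 2 of these rose. Ihh, the ligand made by visceral and gut endoderm, had 8.16, 8.73 and 8.64 on day 8, against 4.61, 5.39 and 5.64 on day 4, when it was detected on 2 of 3 arrays. The genes of Scube2 and Disp1, proteins that release the ligand from the cell, were also higher: Scube2 was undetected on day 4 and at least 4.33-fold higher, and Disp1 rose by 1.45 ± 0.14. Of 22 Notch pathway genes 8 rose and 7 fell (36.4% and 31.8%, against 28.1% and 27.0% of all genes). Dlk1, an imprinted Notch ligand-like gene, had 8.60, 8.63 and 8.52 on day 8, against 5.33, 5.29 and 5.38 on day 4, while Dtx1, Mfng and Notch4 fell (-2.13 ± 0.18, -1.73 ± 0.20 and -1.43 ± 0.16).

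Among 16 IGF genes 6 rose and 5 fell (37.5% and 31.2%, against 28.1% and 27.0% of all genes). Igf2, the fetal growth factor, had 14.11, 14.20 and 14.04 on day 8, against 11.27, 11.11 and 11.12 on day 4, a change of 2.95 ± 0.09 (7.75-fold, adjusted p = 9.13e-14). The binding protein genes diverged. Igfbp5 had 11.17, 11.11 and 11.13 on day 8 and 6.65, 7.37 and 7.17 on day 4 (16.8-fold higher), and Igfbp1 was undetected on day 4 and at least 3.98-fold higher. Igfbp2 fell to 8.24, 7.14 and 7.75 on day 8, against 10.90, 10.26 and 10.28 on day 4. Igf2r, which clears IGF2 from the surface, rose by 1.10 ± 0.15.

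Most guidance genes of the semaphorin list rose. Semaphorins, plexins, netrins and slits gave 15 rises and 3 falls among 24 genes (62.5% rose, against 28.1% of all genes). Eph receptors and ephrins gave 7 rises (53.8%) and 4 falls (30.8%) among 13, with 2 falls without day 8 replicate 2. Efna1, an ephrin ligand, had 9.02, 9.46 and 9.68 on day 8, against 5.43, 6.36 and 6.09 on day 4, and Nrp1, a receptor for semaphorins and VEGF, had 9.33, 9.89 and 9.34 on day 8, against 6.94, 7.27 and 6.88 on day 4. Epha2 fell (-2.09 ± 0.18). Pdgfra, the receptor for platelet-derived growth factor that marks primitive endoderm and mesenchyme, had 11.89, 12.36 and 12.21 on day 8, against 8.51, 8.56 and 8.59 on day 4 (12.1-fold higher).

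Of 23 tested germline and early embryo genes 17 fell (73.9%, against 27.0% of all genes) and 3 rose, with a median of -1.63. Dppa2, a chromatin factor of early embryos, had 6.41, 6.56 and 6.42 on day 8, against 10.34, 10.14 and 10.04 on day 4 (13.1-fold lower, adjusted p = 1.15e-12). Tdrd12, a Tudor protein of the pathway that silences transposons, had 5.90, 5.38 and 5.87 on day 8, against 9.14, 9.14 and 9.02 on day 4. Its pathway partner Piwil2 and the germ cell RNA-binding gene Dazl were detected on no day 8 array and were at least 5.44-fold and 4.64-fold lower. Ooep, an oocyte gene outside the list, had 8.03, 7.98 and 8.23 on day 8 and 12.31, 12.42 and 12.28 on day 4. The rises were the X-linked homeobox genes Rhox5 (2.01 ± 0.10) and Rhox6 (2.47 ± 0.19) and 1 other.

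Of 13 DNA methylation genes 8 fell and 3 rose (61.5% and 23.1%, against 27.0% and 28.1% of all genes). Dnmt3l, the cofactor of the new-methylation enzymes, had 10.78, 10.65 and 10.62 on day 8, against 14.11, 14.10 and 14.05 on day 4 (-3.40 ± 0.16, adjusted p = 1.09e-11). The enzyme gene Dnmt3b had 12.73, 12.78 and 13.02 on day 8, against 14.07, 14.39 and 14.22 on day 4. Uhrf1, which guides maintenance methylation, fell (-0.95 ± 0.13), as did the maintenance enzyme gene Dnmt1 (-0.37 ± 0.12), which was not called without day 8 replicate 3 (-0.31) or after median scaling (-0.20), while Uhrf2 rose by 0.67 ± 0.12. Tet2, which oxidises methylcytosine, was detected on no day 8 array and was at least 1.72-fold lower. Gadd45a fell (-2.07 ± 0.13), and its relatives Gadd45b and Gadd45g rose by 1.20 ± 0.18 and 1.02 ± 0.21.

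Of 23 tested polycomb subunits 6 rose and 8 fell, close to the shares of all genes. Phc1 had 11.44, 11.34 and 11.35 on day 8, against 13.62, 13.66 and 13.65 on day 4 (-2.27 ± 0.10, adjusted p = 9.48e-12), whereas its paralog Phc2 had 10.28, 10.36 and 10.43 on day 8, against 8.79, 9.14 and 8.91 on day 4 (1.41 ± 0.12). Among the ring finger subunits Pcgf6 fell (-0.81 ± 0.15) and Pcgf5 rose by 1.70 ± 0.11. Bmi1, of the same subunit family, rose by 1.17 ± 0.22 and was detected on 2 of 3 day 4 arrays. Cbx8, a reader of the polycomb mark, was undetected on day 4 and at least 2.91-fold higher. Jarid2, Phf19 and Mtf2, accessory subunits of PRC2, fell, the first and last by 1.77 and 1.03 on the log2 scale and Phf19 to below detection on day 8. The core subunit gene Eed fell (-0.82 ± 0.10), and Ezh2, the catalytic subunit chosen after its value was seen, was not called (-0.42 ± 0.20, adjusted p = 0.083) in the fit to 12 arrays. It was called lower without day 4 replicate 2 (-0.54), in the fit to 6 arrays (adjusted p = 0.0367) and in the fit with replicate number as a block (adjusted p = 0.0202).

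RNA-binding regulators rose in 8 of 23 cases and fell in 5 (34.8% and 21.7%, against 28.1% and 27.0% of all genes). Rbpms2 had 7.24, 7.51 and 8.06 on day 8, against 10.79, 10.90 and 11.20 on day 4, and Elavl2 had 6.82, 6.01 and 6.67 on day 8, against 9.38, 9.75 and 9.78 on day 4. The splicing regulator genes Mbnl2 and Celf2 rose by 1.35 ± 0.14 and 1.25 ± 0.22. Lin28a, a brake on let-7 maturation, rose by 0.60 ± 0.19, with 8.36, 8.00 and 8.34 on day 8 and 7.89, 7.38 and 7.63 on day 4, and was not called without day 4 replicate 2 (0.48).

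Of 42 DNA replication genes 34 fell (81.0%, against 27.0% of all genes) and 0 rose, with a median of -0.70. After median scaling 24 fell and 0 rose. Rfc5, a subunit of the clamp loader, had 10.06, 9.88 and 10.12 on day 8, against 11.82, 12.14 and 11.73 on day 4. Rpa2, which coats single strands, had 9.17, 9.08 and 9.42 on day 8, against 10.88, 10.73 and 11.12 on day 4, and Dut, Mcm10 and Rrm2 fell as well (-1.66 ± 0.15, -1.63 ± 0.15 and -1.20 ± 0.14). The E2F spelling TTTCGCGC was held by 6 of the 37 replication genes with a window, by 67 of the 7829 tested genes and by 0.323% of all windows. Genes with a 2-fold fall held it in 4 of 727 cases (0.55%, against 0.856% of tested genes). Those with a 2-fold rise held it in 2 of 885 cases (0.226%).

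Cyclins, kinases and inhibitors of the cell cycle gave 9 rises and 13 falls among 37 genes, and 9 of each after median scaling. The shares were 24.3% and 35.1%, against 28.1% and 27.0% of all genes, before that scaling. The D cyclins moved in opposite directions: Ccnd2 had 10.71, 11.08 and 11.12 on day 8, against 7.96, 7.84 and 8.33 on day 4, and Ccnd1 averaged 10.33 ± 0.32 on day 8, against 11.74 ± 0.28 on day 4 (SD). The inhibitor gene Cdkn1c (p57), which is imprinted, had 11.50, 11.31 and 11.48 on day 8 and 8.79, 8.99 and 8.71 on day 4 (6.08-fold higher, adjusted p = 1.56e-09). E2f1 fell (-1.14 ± 0.12).

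Ribosomal protein genes fell by small amounts. Of 50 tested for the cytosolic ribosome, 33 fell (66.0%, against 27.0% of all genes) and 0 rose, with a median of -0.46. After median scaling 29 fell. The 2 largest falls belonged to the paralogs Rpl39l and Rpl3l rather than to the common forms. Rpl39l had 6.01, 5.78 and 6.02 on day 8, against 9.12, 8.95 and 8.75 on day 4, and Rpl3l was detected on no day 8 array, at least 5.39-fold lower. Whether these probes also bind transcripts of near-identical copies was not tested. Next came Rpl14 (-1.28 ± 0.14), Rpl21 (-1.24 ± 0.17) and Rpl4 (-1.13 ± 0.21). At the top of the intensity range Rps14 had 15.03, 14.98 and 14.99 on day 8, against 14.95, 14.98 and 14.89 on day 4, and Rpl23, Rps20, Rps29 and the ATP synthase gene Atp5b were likewise uncalled with 95% intervals within 0.25 of 0.

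For the mitochondrial ribosome 39 of 69 genes fell (56.5%, against 27.0% of all genes) and 2 rose. After median scaling 22 fell and 3 rose. Mrpl35 had 5.81, 5.70 and 5.73 on day 8, against 6.72, 7.31 and 7.36 on day 4, and Mrps5 fell by 1.16 on the log2 scale. Among 72 subunits of oxidative phosphorylation 24 fell (33.3%, against 27.0% of all genes), 5 rose and 43 were not called, and after median scaling 13 fell. The 5 rises came to 1 without day 4 replicate 3, to 2 without day 8 replicate 1 and to 3 without day 8 replicate 3 or day 4 replicate 2. The largest of their falls on all 6 arrays was Cyc1, a subunit of complex III (-0.98 ± 0.13).

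Transporters of the solute carrier families rose in 69 of 196 cases and fell in 47 (35.2% and 24%, against 28.1% and 27.0% of all genes). Slc7a3, an importer of arginine and lysine, had 9.89, 9.44 and 9.68 on day 8, against 13.01, 13.15 and 13.09 on day 4 (10.6-fold lower, adjusted p = 3.38e-13), and Slc12a8 had 5.48, 5.33 and 5.52 on day 8, against 9.26, 9.24 and 8.96 on day 4. Slco3a1, an organic anion transporter, had 10.15, 10.26 and 10.38 on day 8, against 7.58, 7.94 and 7.64 on day 4. The zinc and manganese importer gene Slc39a8 had 7.92, 8.04 and 8.36 on day 8 and 5.24, 5.95 and 5.66 on day 4.

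Among 44 cell junction genes 16 rose and 12 fell (36.4% and 27.3%, against 28.1% and 27.0% of all genes). Without day 8 replicate 3 the falls came to 7. Cdh1, the gene for E-cadherin, was not called, with 10.38, 10.18 and 10.28 on day 8, against 10.40, 10.07 and 10.21 on day 4, and its change of 0.06 had a 95% interval of -0.20 to 0.32. It was chosen after its value was seen, as was Cdh2 (N-cadherin), which was not called either (-0.29 ± 0.17, adjusted p = 0.155). The adhesion gene Jam2 had 6.05, 5.65 and 6.19 on day 8, against 9.68, 9.86 and 9.68 on day 4 (13.7-fold lower), and Cdh3 (P-cadherin) fell (-2.15 ± 0.16). Cldn7, a tight junction claudin, rose by 1.69 ± 0.26, and Cdh6 was undetected on day 4 and at least 2.39-fold higher. Among 12 keratins 5 rose (41.7%) and 2 fell (16.7%). Krt23 was undetected on day 4 and at least 6.41-fold higher, and Krt17 fell (-2.11 ± 0.15). Genes of the transition from epithelium to mesenchyme rose in 5 of 23 cases (21.7%) and fell in 8 (34.8%). The falls included Grhl2, an epithelial factor (-2.18 ± 0.18), as well as Zeb1, its mesenchymal opponent (-1.38 ± 0.20), and fibronectin, Fn1 (-1.22 ± 0.22).

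Outside the lists, the largest rises among genes detected on all 6 arrays included Clu, a secreted chaperone gene, with 13.54, 13.30 and 13.33 on day 8, against 9.19, 8.97 and 8.99 on day 4 (20.2-fold). Spon2, a matrix protein gene, had 12.11, 12.38 and 12.41 on day 8 and 7.73, 8.38 and 7.80 on day 4. Gpx3, a secreted glutathione peroxidase gene, had 12.48, 12.31 and 12.01 on day 8 and 8.58, 7.83 and 8.10 on day 4. The days did not overlap for these 3 genes, as for 31.2% of tested genes with day 8 above. Among the largest falls was Pla2g10, a secreted phospholipase gene, with 6.19, 5.66 and 6.18 on day 8 and 10.50, 10.45 and 10.20 on day 4 (20.7-fold). A few of the genes described above were near the limit of detection on their dimmer day. On day 4, Canx, Prox1, Slc39a8, Sox5 and Wnt5a were detected on 2 of 3 arrays and Rhox6 on 1, and on day 8 Dtx1 was detected on 2 of 3 arrays and Cdh3 and Foxp1 on 1.

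The levels on the other days show that some of these genes did not move one way through the protocol. The examples were chosen after their values were seen and are described without a test. Socs3, a feedback inhibitor of cytokine signals, averaged 10.94, 6.16, 10.44 and 10.89 over days 0, 4, 8 and 15. Id1 averaged 9.38, 6.21, 9.37 and 7.28 over the same days, and Stard4 10.49, 9.42, 11.36 and 10.38. In these genes day 4 was the low point. Fgf5 averaged 4.86, 10.50, 8.03 and 5.51, and Aire, a regulator best known from the thymus, 5.52, 8.99, 4.89 and 5.55. Kcnc4, a potassium channel gene, was detected on all 3 arrays of day 4 and on no array of the other days. For another set day 8 was the high point: Apob averaged 5.02, 5.30, 8.46 and 5.16, Proc 5.14, 5.61, 7.72 and 4.85, and Serpinf2 4.46, 4.61, 8.02 and 5.17.

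**Figure D5:**
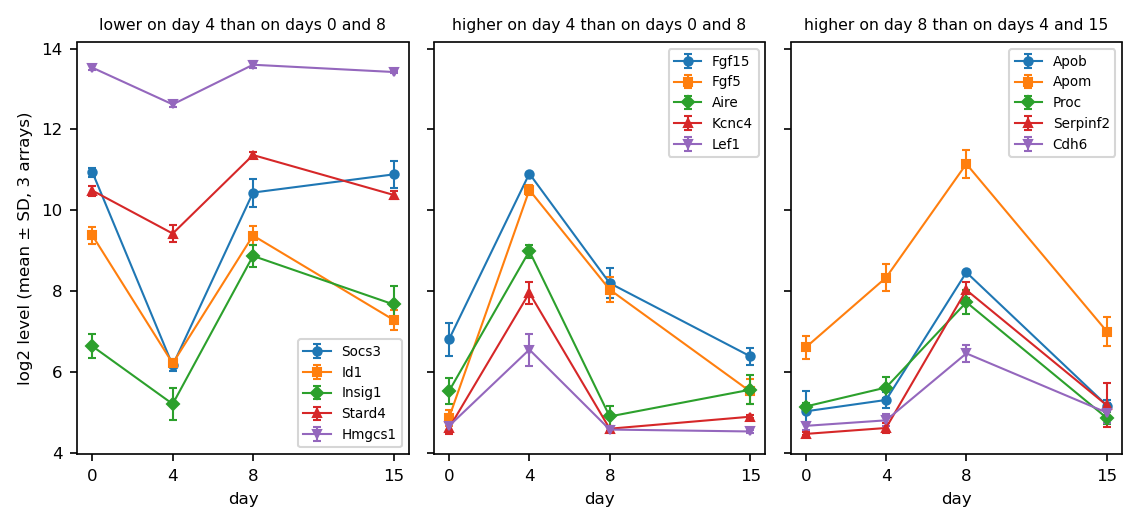
Mean log2 level ± SD of 3 arrays (vertical axis) on days 0, 4, 8 and 15 (horizontal axis) for 5 genes lowest on day 4, 5 genes highest on day 4 and 5 genes highest on day 8, 1 line per gene. Socs3 averaged 10.94, 6.16, 10.44 and 10.89 on the 4 days, and Apob 5.02, 5.30, 8.46 and 5.16.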

How the data were processed

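Each of 24613 probes on 12 Illumina arrays has an intensity in the authors' deposited scanner table, neither background-subtracted nor normalized, and a deposited detection p-value; biotinylated cRNA was amplified from total RNA, per the labels' protocols. The authors' deposited log2 table served as an alternative (its normalization is not given in the sources used). The neqc function of limma 3.58.1 (R 4.3.3) corrected background, with negative controls inferred from detection p-values, added an offset of 16 and quantile-normalized. Quantile normalization removes any change in total RNA per cell. Probes with detection p under 0.05 on at least 3 of 12 arrays (13421) were kept, 11787 named 1 gene by the platform annotation, and the probe with the highest mean stood for each of 9657 genes. Limma fitted 1 mean per day (8 residual degrees of freedom, variance trend), with Benjamini-Hochberg adjustment over all genes; the fit was tested on simulated data. Levels are log2 intensities, changes are day 8 minus day 4 ± SE, and 95% intervals come from the fit. The number of arrays limits the precision. Where no array of the dimmer day detected a gene, its fold is a lower bound against that day's mean detection floor; where 1 or 2 arrays detected it, no fold is given if its mean is under that floor. The files name no slide, scan or hybridization batch. The genes, lists (59) and motifs were chosen with earlier results of these data known. Eligible to be named with values (not all are named) were up to 6 called members in each direction per list (any member of lists of at most 15), the 10 brightest genes detected on 1 day only, the 10 largest changes each way, the 5 genes with the most opposed probes and the 5 brightest steady genes; Bmp4, Canx, Cdh1, Cdh2, Crabp2, Creld2, Dazl, Ezh2, Herpud1, Hsp90b1, Hspa5, Manf, Pcgf6, Pdia4, Pdia6, Sdf2l1, Tfpi and Xbp1 were named after their values were seen. Alternatives were the authors' table, median scaling, an offset of 50, other filters, the mean over probes, only 6 arrays, a replicate block and leaving out each array.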

Additional observations from a re-analysis of the deposited data

How the results depend on the processing

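The counts of rising and falling genes (2715 and 2608) were within 1.5 times the same under all alternatives run: 2748 and 2543 with the authors' log2 table, 3055 and 1931 with median scaling (which moved the median of all genes to 0.05), 2707 and 2590 with an offset of 50, 2705 and 2569 of 15967 genes with no filter, and 2802 and 2701 with only the 6 arrays of both days. Of list counts above 5, those of falls among mitochondrial ribosomal (39) and oxidative phosphorylation genes (24) came to 22 and 13 with median scaling, and without day 8 replicate 3 rises among integrins (7) and falls among junction (12) and contractile genes (13) came to 4, 7 and 8. Leaving out 1 array also moved counts of 0 to 2 calls by 1 call each among the falls of T-box factors, hepatocyte nuclear factors, keratins, coagulation, retinoid, ER and hedgehog genes, the rises of mitochondrial ribosomal genes, and the fibroblast, blood, neural, cardiac and parietal endoderm markers. Leaving out each array in turn gave 2470 to 2564 rises and 2309 to 2430 falls. Of the 5323 called genes, 5323 kept their direction after median scaling and 4615 stayed called. With a stricter detection p of 0.01, the difference in detected probes per array, 153 in favour of day 8, became -9 (exact permutation test, p = 0.9). Rpl23, uncalled at 0.02, fell by 0.41 on the log2 scale with the mean of its detected probes (adjusted p = 0.00287); other probes of the gene enter there. Under that setting 3 genes with opposed probes turned round: Ctsa to -0.0527, Eme1 to -0.51 and M6pr to -0.33. Hhex, uncalled, was called higher after median scaling (0.37). Deviations of same-numbered arrays of the 2 days correlated at 0.35, 0.06 and 0.20. Each day 8 array correlated best with the day 4 array of its own number, for replicate 3 by only 0.198 against 0.197. Day 4 replicate 2 departed from this, at 0.06 with day 8 replicate 2 and 0.197 with day 8 replicate 3. The labels state no pairing, so the main fit took none. Whether arrays of the same number share an effect was not tested. A fit with the replicate block gave 2977 rises and 2917 falls. Probe brightness limits the low end: 954 tested genes were not detected on all 3 arrays of either day.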

Other observations

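Some genes had probes that disagreed. Of 680 genes with at least 2 called probes, 661 had all of them in the same direction and 19 had probes called in opposite directions. The 5 widest gaps were those of Eme1, Pml, Erdr1, Ctsa and M6pr. For Eme1, a DNA repair endonuclease subunit, one probe averaged 12.84 on day 8 and 12.02 on day 4 and rose by 0.82 ± 0.15, while another averaged 5.84 on day 8 and 8.04 on day 4 and fell by 2.20 on the log2 scale. For Pml, the scaffold of nuclear bodies, the changes were 0.39 ± 0.16 and -2.04 ± 0.17, and for Erdr1 they were 1.03 ± 0.14 and -0.92 ± 0.16. The lysosomal genes Ctsa (0.78 ± 0.17 and -0.89 ± 0.22) and M6pr (0.42 ± 0.10 and -1.08 ± 0.19) had the other gaps. Which transcripts these probes bind was not tested.

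Probes with no gene name were called less often than tested genes. Of 1634 such probes that passed the detection filter, 347 rose and 410 fell on day 8. Among the 9657 tested genes, 2715 rose (28.1%) and 2608 fell (27.0%).

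Genes seen on only 1 of the 2 days include several with no place in the lists. Vsir, an immune checkpoint gene, had log2 levels of 8.41, 8.78 and 8.27 on day 8 and was detected on no array of day 4 (at least 9.77-fold higher). Ugt2b34, a glucuronidation enzyme gene, had 8.29, 8.38 and 8.26 on day 8, higher by at least 8.65-fold. Among the falls, Aire was detected on no day 8 array, against 8.81, 9.01 and 9.13 on day 4, at least 14.2-fold lower, and Rps6kl1 was at least 9.57-fold lower. Kcnc4 was at least 6.92-fold lower, and Ltbp4, which binds latent TGF-beta, at least 7.38-fold lower.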
